A study of Mus musculus with 7 samples.

Results

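The genes described here are 36 interferon-stimulated genes of the mouse kidney, named as a list by symbol and looked up among the 45706 genes of the deposited tables. All 36 were found, each had at least 1 count in every library, and 34 had enough counts to be tested. Oas3 and Mx1 were too low for the test and are given as values. Total RNA was sequenced from kidneys of 7 male mice aged 6 months, all carrying the genotype Slc7a9-/-. Slc7a9 encodes the light subunit of a transporter that takes up cystine and dibasic amino acids in the proximal tubule, and its loss is a model of cystinuria. The ergothioneine group held 4 mice that received L-ergothioneine, a sulphur-containing amino acid derivative taken up from food, at 16 mg/kg/day in the drinking water. The untreated group held 3 mice of the same genotype, sex and age. Wild-type kidneys are not analysed here, and the labels give no strain, litter, duration of treatment or stone status, so each value below describes ergothioneine against no ergothioneine within cystinuric kidneys. The labels do not say how the mice relate to each other, so p-values measure the spread between these samples.

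Type I interferons bind the receptor made of IFNAR1 and IFNAR2, the kinases JAK1 and TYK2 phosphorylate STAT proteins, and the factor ISGF3 forms, of which STAT2 and IRF9 are subunits, which binds interferon-stimulated response elements in promoters. Interferon gamma acts through its own receptor and through gamma-activated sites in promoters, and it is the main inducer of the guanylate-binding proteins and immunity-related GTPases. The proteins made from these genes sense foreign RNA and DNA, degrade or sequester viral RNA, attach the ubiquitin-like protein ISG15 to other proteins, or attack the vacuoles in which microbes live. In an uninfected kidney they are expressed at a low basal level in tubule, endothelial and immune cells.

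The promoters show the sequence that this group is known for. RefSeq promoter windows on GRCm38.p6, which run from 250 bases before to 50 bases after a gene's start, were matched by symbol for 26 of the 36 members. The core of the interferon-stimulated response element, the letters GAAA, any 2 bases and GAAA again, searched on both strands with overlapping matches allowed, was in the windows of 15 of these 26 genes, or 57.7%, against 3.99% of all 27025 genes in the same promoter table and 3.90% of the 11033 of them tested here. The gamma-activated site, TTCNNNGAA, which reads the same on both strands, was in 6 of the 26 members, or 23.1%, against 9.55% of all genes in the table. These are matches of letters in a short window, not measured binding.

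Among members that passed the test of the treatment, Oas2 and Parp14 had no matched window. The first pair of sequences is shown because Ifit1 and Herc6 also passed while only the Ifit1 window holds the element. Each is the 250 bases up to the RefSeq start, read 5′ to 3′ on the strand of the gene, and capitals mark the matched letters, on the opposite strand. Ifit1 lies at chr19:34640639-34640888 on the plus strand, with matches that begin at positions -104 and -85 from the start. Herc6 lies at chr6:57580742-57580991 on the plus strand and has none.
Ifit1: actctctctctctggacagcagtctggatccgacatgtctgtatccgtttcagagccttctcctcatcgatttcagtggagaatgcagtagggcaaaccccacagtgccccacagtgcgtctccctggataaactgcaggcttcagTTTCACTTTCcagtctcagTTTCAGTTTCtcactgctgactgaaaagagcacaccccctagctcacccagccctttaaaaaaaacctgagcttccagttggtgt
Herc6: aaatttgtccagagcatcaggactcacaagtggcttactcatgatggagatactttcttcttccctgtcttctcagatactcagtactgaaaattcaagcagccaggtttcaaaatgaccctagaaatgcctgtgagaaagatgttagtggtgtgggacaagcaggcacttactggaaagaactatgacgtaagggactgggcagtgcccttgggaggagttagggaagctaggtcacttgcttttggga

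The second set is shown because these 6 members, from 3 of the roles below, hold the element before the start, and none of them passed the test of the treatment. Of all 34 tested members 30 did not pass, and a link between the element and the test result was not tested. Each sequence is 60 bases on the strand of the gene with the matched letters in capitals. They come from Isg15 (chr4:156200850-156200909, minus strand), Bst2 (chr8:71537562-71537621, minus strand), Oas1a (chr5:120907526-120907585, minus strand), Rsad2 (chr12:26456538-26456597, minus strand), Igtp (chr11:58199496-58199555, plus strand) and Gbp2 (chr3:142620579-142620638, plus strand).
Isg15: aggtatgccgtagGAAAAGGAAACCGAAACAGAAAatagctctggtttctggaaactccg
Bst2: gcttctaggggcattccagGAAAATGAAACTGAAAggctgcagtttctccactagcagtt
Oas1a: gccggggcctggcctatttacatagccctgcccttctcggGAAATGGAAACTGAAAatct
Rsad2: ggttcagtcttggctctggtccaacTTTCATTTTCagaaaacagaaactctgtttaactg
Igtp: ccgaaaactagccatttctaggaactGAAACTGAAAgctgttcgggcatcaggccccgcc
Gbp2: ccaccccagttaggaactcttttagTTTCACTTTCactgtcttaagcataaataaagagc

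Under ergothioneine, 4 of the 34 tested members fell and 0 rose. The 4 were Ifit1, Oas2, Herc6 and Parp14, with fitted decreases of 46.9%, 61.6%, 29.5% and 24.2%. They make up 11.8% of the tested members, against 3.57% of all 15399 tested genes that fell and 3.58% that rose, 7.16% in either direction. The call was edgeR's quasi-likelihood test with Benjamini-Hochberg adjustment over all tested genes at a threshold of 0.05. At an unadjusted p under 0.05, 13 members were lower and 0 higher, where 10.4% of all genes were lower and 10.4% higher. DESeq2, which called 3.87% of these genes lower, called the same 4 members lower and 0 higher. The other 30 tested members did not pass, 26 of them with a fitted value below 0.

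The fitted log2 fold change was below 0 in 30 of the 34 members, or 88.2%, against 50.7% of all genes. Its median over members was -0.38, a fold of 0.768, with a range from -1.38 to 0.08, and the median over all tested genes was -0.0031. The median standard error of a member was 0.17 on the log2 scale, against 0.11 over all genes. Under 100 counts were found in every library for 14 of the 36 members. In 5 members, Irf9, Dhx58, Oas2, Herc6 and Parp14, every ergothioneine library lay below every untreated library, which is 14.7% of the tested members against 9.11% of all genes, and 0 members separated in the higher direction, against 9.46% of all genes. The 4 calls do not hold when some single libraries are left out: 0 members passed without untreated library 3, ergothioneine library 1 or ergothioneine library 2, and 1 passed without untreated library 2, while the median stayed between -0.45 and -0.28. With TPM values rescaled after short non-coding genes were removed, limma called 0 members, and the median was -0.31.

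**Figure D1:**
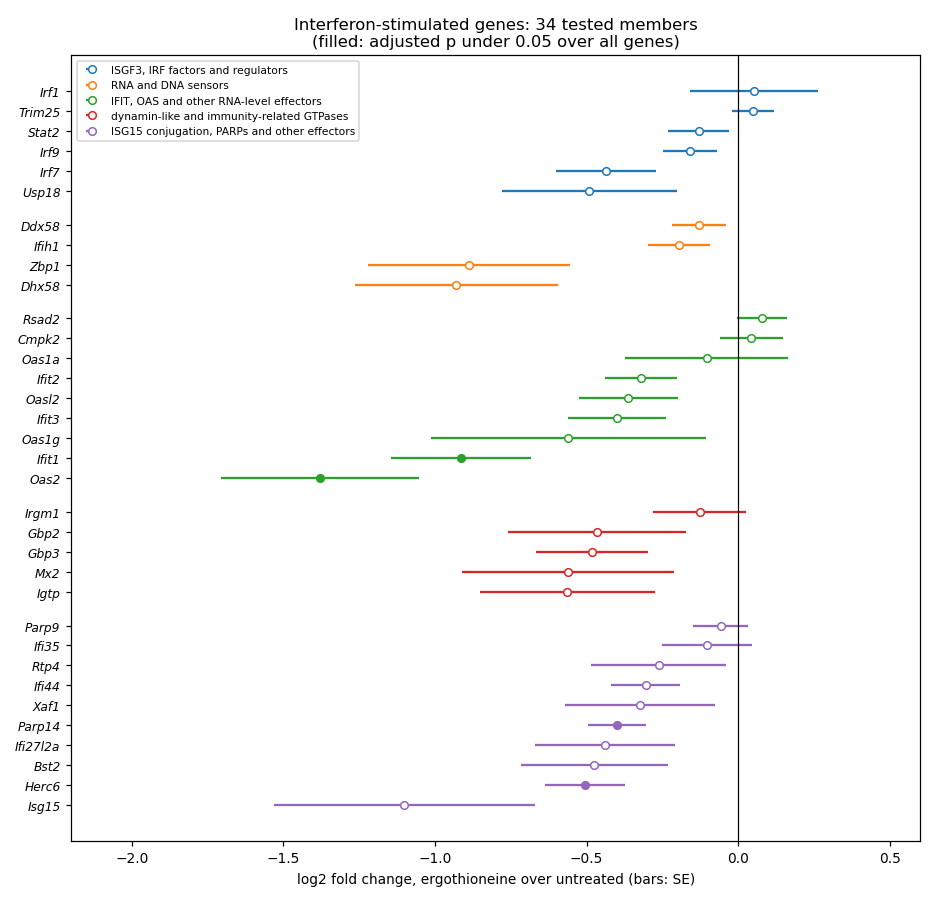
Fitted log2 fold change of ergothioneine over untreated kidneys for the 34 tested members, grouped by role, with bars of 1 standard error and filled points for the 4 members that passed the test. 30 members lie left of 0, and the 4 that passed run from -1.38 for Oas2 to -0.40 for Parp14.

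**Figure D2:**
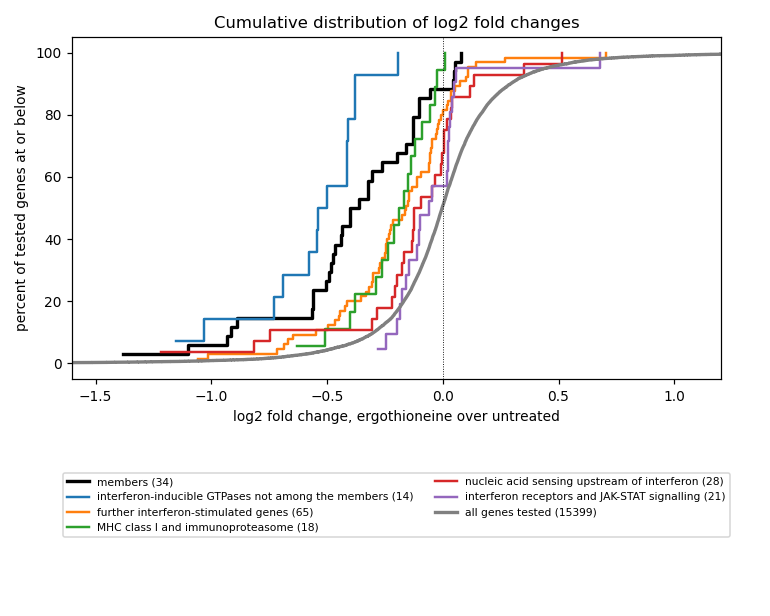
Cumulative share of genes by fitted log2 fold change of ergothioneine over untreated kidneys, for the 34 tested members, for 5 lists of related genes and for all 15399 tested genes. The members' curve lies left of that of all genes, with medians of -0.38 and -0.0031.

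Levels are compared between genes as TPM, which is per transcript length, here rescaled to the same sum in each library without short non-coding genes because those took unequal shares of the libraries. Irgm1 was the highest member, at a mean of 44.7 TPM in ergothioneine and 47.5 TPM in untreated kidneys, followed by Trim25 at 36.3 TPM in ergothioneine and 35.7 TPM in untreated kidneys. Oas3 was the lowest, at 0.145 TPM in ergothioneine and 0.391 TPM in untreated kidneys. Isg15, an abundant product of infected cells, was at 1.54 TPM in ergothioneine and 3.40 TPM in untreated kidneys. The values that follow are CPM, counts relative to the TMM-scaled library total, and are compared only within a gene.

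Of the transcription factors and regulators, 0 of 6 passed the test in either direction, where 7.16% of all genes passed. Their median log2 fold change was -0.14. The roles hold 4 to 10 members each, too few to compare their shares of calls. STAT2 and IRF9 are subunits of ISGF3. Stat2 had 15.3, 14.7, 12.9 and 15.8 CPM in ergothioneine kidneys, against 15.2, 17.2 and 15.8 CPM in untreated kidneys. The groups overlapped, and the log2 fold change was -0.13 with an approximate 95% interval from -0.33 to 0.07. Irf9 had 15.7, 15.6, 16.5 and 16.6 CPM in ergothioneine kidneys, against 18.9, 16.8 and 18.2 CPM in untreated kidneys. Every Irf9 value under ergothioneine was below every untreated one, but the difference was small (log2 fold change -0.16 ± 0.09 SE) and its adjusted p by edgeR was 0.341.

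IRF7, the factor that amplifies interferon alpha transcription and is itself induced by interferon, had lower transcript values without passing the test. Irf7 was at 7.10, 5.41, 5.26 and 7.14 CPM in ergothioneine kidneys, against 8.10, 6.77 and 10.4 CPM in untreated kidneys, a log2 fold change of -0.44 ± 0.16 SE (edgeR, adjusted p = 0.127). Untreated library 2 lay below the highest 2 ergothioneine values. Usp18 removes ISG15 from proteins and restrains signalling at IFNAR2. It was at 2.10, 0.961, 1.64 and 2.45 CPM in ergothioneine kidneys, against 2.15, 3.15 and 2.24 CPM in untreated kidneys. Ergothioneine library 4 lay within the untreated range, and the log2 fold change of -0.49 ± 0.29 SE had an adjusted p of 0.365 by edgeR.

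Irf1, a factor induced by interferon gamma and upstream of many gamma interferon targets, had 8.91, 10.2, 10.1 and 16.6 CPM in ergothioneine kidneys, against 9.41, 12.4 and 11.5 CPM in untreated kidneys. Ergothioneine library 4 held the highest of the 7 values and library 1 the lowest. The log2 fold change was 0.05, with an interval from -0.36 to 0.47, and its sign turned under several alternatives. Trim25, the ubiquitin ligase that acts on RIG-I, was at 121 ± 3.43 CPM in ergothioneine kidneys and 117 ± 14.2 CPM in untreated kidneys (SD, n = 4 and 3). Its interval, from -0.09 to 0.19 on the log2 scale, bounds any difference more tightly than that of most members.

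None of the 4 nucleic acid sensors passed the test, where 7.16% of all genes passed, and their median log2 fold change was -0.54. The cytoplasmic RNA helicases gave -0.20 ± 0.10 SE for Ifih1 (MDA5) and -0.13 ± 0.09 SE for Ddx58 (RIG-I). Dhx58 (LGP2), which tunes the other two helicases, was at 1.36, 0.557, 0.701 and 0.981 CPM in ergothioneine kidneys, against 1.42, 2.28 and 1.47 CPM in untreated kidneys. Its groups did not overlap, although the highest ergothioneine and the lowest untreated value were close, and the log2 fold change of -0.93 ± 0.33 SE had an adjusted p of 0.108 by edgeR. Zbp1, a sensor of Z-form nucleic acids that can start necroptosis, was at 0.795, 0.557, 1.05 and 1.36 CPM in ergothioneine kidneys, against 1.19, 2.14 and 1.92 CPM in untreated kidneys (log2 fold change -0.89 ± 0.33 SE, edgeR adjusted p = 0.126). Ergothioneine library 4 and untreated library 1 crossed.

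Among effectors that act on RNA, 2 of 9 tested members fell, Ifit1 and Oas2, or 22.2% against 3.57% of all genes. The median log2 fold change was -0.36 over the 9. IFIT1 binds viral RNA whose cap lacks ribose methylation and blocks its translation. Ifit1 (ENSMUSG00000034459, chr19:34640871-34650009, plus strand) had 3.75, 3.59, 5.84 and 3.27 CPM in ergothioneine kidneys, against 5.67, 10.3 and 7.31 CPM in untreated kidneys. Ergothioneine library 3 lay just above untreated library 1, and all other ergothioneine values were below all untreated ones. The means were 4.11 ± 1.17 CPM in ergothioneine and 7.77 ± 2.36 CPM in untreated kidneys (SD, n = 4 and 3), with a log2 fold change of -0.91 ± 0.23 SE (edgeR, adjusted p = 0.0301). The adjusted p was 0.0710 to 0.104 without untreated library 2 or 3 or ergothioneine library 1, 2 or 4.

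OAS2 is an oligoadenylate synthetase that activates the ribonuclease RNase L when it binds double-stranded RNA. Oas2 (ENSMUSG00000032690, chr5:120730333-120749853) had 0.738, 1.01, 1.81 and 1.15 CPM in ergothioneine kidneys, against 1.98, 2.68 and 4.55 CPM in untreated kidneys. These rest on 13, 20, 31 and 21 counts in ergothioneine kidneys and on 35, 40 and 71 counts in untreated kidneys. The groups did not overlap, untreated library 3 was the highest, and the log2 fold change of -1.38 ± 0.33 SE had an adjusted p of 0.0165 by edgeR. The adjusted p was 0.115 without untreated library 3, 0.0569 without ergothioneine library 1 and 0.0613 without ergothioneine library 2.

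The relatives of these 2 genes had values on the same side of 0 and did not pass. Ifit2 had 12.7, 10.3, 12.6 and 9.81 CPM in ergothioneine kidneys, against 14.7, 15.1 and 12.6 CPM in untreated kidneys (log2 fold change -0.32 ± 0.12 SE, edgeR adjusted p = 0.12). Ifit3 had 8.18, 6.32, 10.7 and 7.96 CPM in ergothioneine kidneys, against 9.52, 12.9 and 10.3 CPM in untreated kidneys (log2 fold change -0.40 ± 0.16 SE, edgeR adjusted p = 0.162). Ergothioneine libraries 1 and 3 lay just above the lowest untreated value for Ifit2, and ergothioneine library 3 reached into the untreated range for Ifit3. Oasl2 gave -0.36 ± 0.16 SE, Oas1g -0.56 ± 0.45 SE and Oas1a -0.10 ± 0.27 SE. Oas1a and Oas1g are near copies of each other, as are Ifit3 and Ifit3b, so the split of reads between them is uncertain. Oas3 was counted 6, 8, 7 and 7 times in ergothioneine kidneys, against 6, 16 and 19 times in untreated kidneys. Untreated library 1 was at the ergothioneine level. Without it Oas3 entered the fit, at a log2 fold change of -1.56, only through its counts in untreated libraries 2 and 3. Its call in that fit (edgeR, adjusted p = 0.0440) follows from that choice of libraries and is not read as a result.

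Rsad2 and Cmpk2, neighbours on chromosome 12, were the RNA-level members whose values did not lie below those of untreated kidneys. Rsad2 encodes viperin, which makes a chain-terminating nucleotide from CTP, and Cmpk2 encodes a nucleotide kinase. Rsad2 had 27.0, 26.7, 27.4 and 29.7 CPM in ergothioneine kidneys, against 23.5, 28.6 and 26.7 CPM in untreated kidneys, and Cmpk2 had 15.3, 14.8, 16.3 and 16.2 CPM in ergothioneine kidneys, against 12.9, 16.1 and 16.6 CPM in untreated kidneys. The approximate 95% intervals of their log2 fold changes ran from -0.08 to 0.24 for Rsad2 and from -0.16 to 0.25 for Cmpk2. The lower bounds of these intervals lie above the fitted values of Ifit1, Oas2, Herc6 and Parp14. The difference between these genes and Ifit1 or Oas2 was not tested as such.

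No GTPase passed among the 5 tested, where 7.16% of all genes passed, and their median log2 fold change was -0.48. Igtp (IRGM3) and Gbp2 are typical targets of interferon gamma, and GBP2 coats vacuoles holding microbes. Igtp had 12.7, 9.46, 12.6 and 20.4 CPM in ergothioneine kidneys, against 24.5, 20.2 and 16.2 CPM in untreated kidneys. Gbp2 had 7.32, 6.93, 8.53 and 14.7 CPM in ergothioneine kidneys, against 15.2, 13.0 and 10.6 CPM in untreated kidneys. In both genes ergothioneine library 4 lay among the untreated values while the other 3 lay below all of them. The log2 fold changes were -0.56 ± 0.29 SE for Igtp (edgeR, adjusted p = 0.352) and -0.47 ± 0.29 SE for Gbp2 (edgeR, adjusted p = 0.453). Without ergothioneine library 4 both passed, at -0.82 for Igtp (edgeR, adjusted p = 0.00854) and -0.77 for Gbp2 (edgeR, adjusted p = 0.00363). That library was singled out after its values were seen. Neither gene passed with any other single library left out, where the edgeR adjusted p reached 0.616 for Igtp and 0.710 for Gbp2.

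Gbp3 had 3.69, 3.04, 3.97 and 5.18 CPM in ergothioneine kidneys, against 5.84, 5.96 and 4.81 CPM in untreated kidneys, with library 4 again the highest under ergothioneine (log2 fold change -0.48 ± 0.19 SE, edgeR adjusted p = 0.135). Irgm1, a regulator of the other immunity-related GTPases, had 43.4, 35.1, 45.5 and 57.4 CPM in ergothioneine kidneys, against 50.3, 52.4 and 45.8 CPM in untreated kidneys. Its ergothioneine values ran from the lowest to the highest of the 7, and the approximate interval of its log2 fold change ran from -0.43 to 0.17. Mx2, a dynamin-like antiviral GTPase, gave -0.56 ± 0.35 SE. Mx1 was counted 7, 4, 10 and 10 times in ergothioneine kidneys, against 9, 5 and 17 times in untreated kidneys. Many inbred mouse strains carry a defective Mx1, and the labels give no strain.

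Of the members of ISG15 conjugation, the PARP family and other effectors, 2 of 10 fell, Herc6 and Parp14, or 20% against 3.57% of all genes. The median log2 fold change was -0.36 over the 10. HERC6 is the main ligase that attaches ISG15 in the mouse. Herc6 (ENSMUSG00000029798, chr6:57581000-57664632) had 9.88, 7.54, 10.7 and 9.87 CPM in ergothioneine kidneys, against 11.6, 15.5 and 13.4 CPM in untreated kidneys. The groups did not overlap, and the log2 fold change was -0.51 ± 0.13 SE (edgeR, adjusted p = 0.0278), with an adjusted p of 0.0599 to 0.129 without untreated library 2 or 3 or ergothioneine library 1 or 2. Isg15 itself had 0.454, 0.506, 0.175 and 0.709 CPM in ergothioneine kidneys, against 0.623, 1.27 and 1.15 CPM in untreated kidneys. It rests on 3 to 13 counts in each ergothioneine library and on 11 to 19 in each untreated library. Isg15 met the count filter through the untreated libraries, and most ergothioneine libraries lay below the cut. Its place among the tested members thus rests on the group where it is high. The highest ergothioneine value lay above the lowest untreated one, and the log2 fold change of -1.10 ± 0.43 SE had an adjusted p of 0.142 by edgeR.

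PARP14 is an ADP-ribosyltransferase, and PARP9 is a related protein of the same family. Parp14 (ENSMUSG00000034422, chr16:35832874-35871544) had 26.9, 24.8, 33.1 and 31.2 CPM in ergothioneine kidneys, against 34.8, 41.2 and 38.8 CPM in untreated kidneys. The groups did not overlap, and the log2 fold change was -0.40 ± 0.10 SE (edgeR, adjusted p = 0.0186), with an adjusted p of 0.0557 to 0.0810 when untreated library 2 or 3 or ergothioneine library 1 or 2 was left out. On log2(TPM + 1) it was 0.0587 by limma. Parp9, close by on the same chromosome, had 20.8, 18.8, 22.3 and 20.7 CPM in ergothioneine kidneys, against 19.3, 22.2 and 23.02 CPM in untreated kidneys, and the groups overlapped (log2 fold change -0.06 ± 0.09 SE, edgeR adjusted p = 0.794). The ratio of Parp14 to Parp9 CPM was 1.29, 1.32, 1.48 and 1.51 in ergothioneine kidneys, against 1.80, 1.86 and 1.69 in untreated kidneys, so the pair moved unequally. This ratio was formed after the values were seen and was not tested.

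The 6 remaining effectors did not pass. Ifi27l2a had 1.87, 2.78, 3.51 and 2.51 CPM in ergothioneine kidneys, against 2.78, 3.62 and 4.49 CPM in untreated kidneys (log2 fold change -0.44 ± 0.23 SE, edgeR adjusted p = 0.302). Bst2, which encodes tetherin, an anchor that holds budding virus at the cell surface, had 2.61, 1.72, 1.69 and 2.29 CPM in ergothioneine kidneys, against 2.10, 3.08 and 3.53 CPM in untreated kidneys (log2 fold change -0.47 ± 0.24 SE, edgeR adjusted p = 0.285). In both genes untreated library 1 lay within the ergothioneine range. Ifi44 gave -0.31 ± 0.11 SE, Xaf1 -0.32 ± 0.25 SE, Rtp4 -0.26 ± 0.22 SE and Ifi35 -0.10 ± 0.15 SE.

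**Figure D3:**
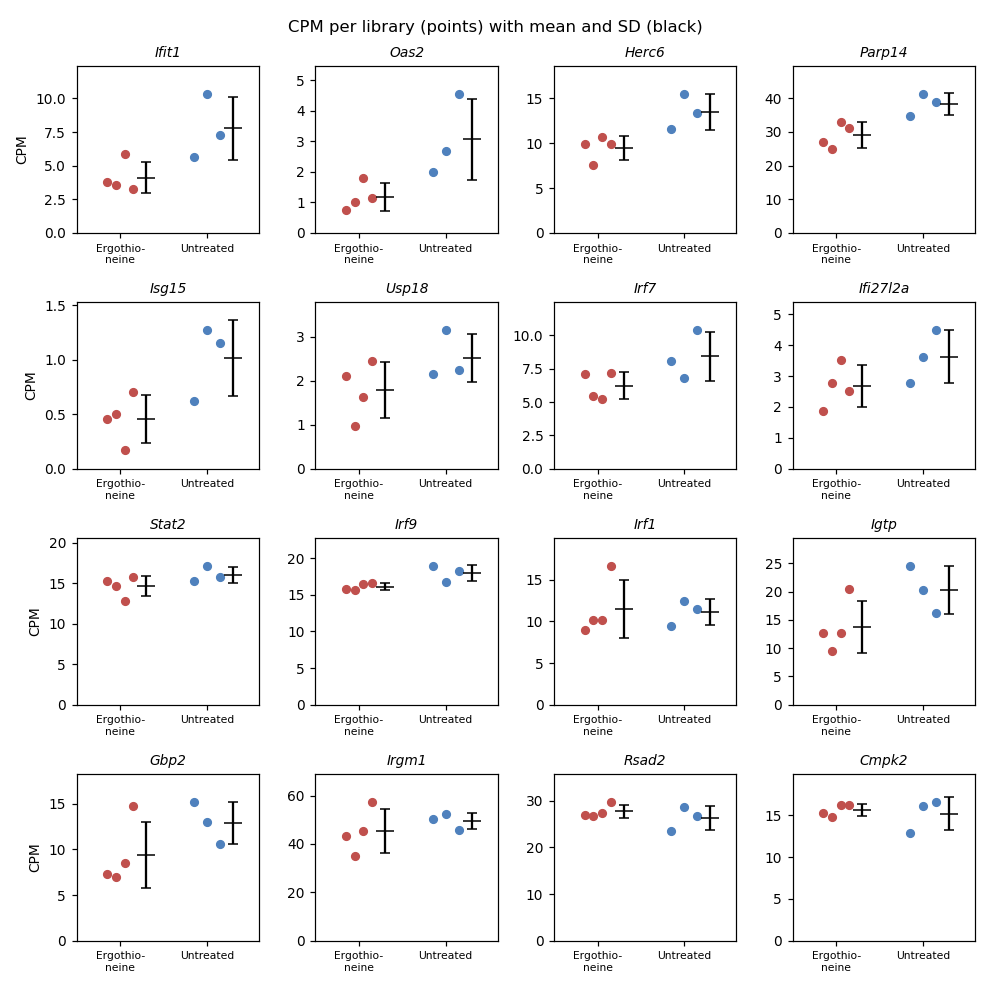
CPM on TMM-scaled library sizes of 16 members in each of the 4 ergothioneine and 3 untreated kidneys, with the group mean and SD in black and each axis starting at 0. Irf9, Oas2, Herc6 and Parp14 separate the groups, Igtp and Gbp2 do so except for ergothioneine library 4, and Rsad2 and Cmpk2 overlap.

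The members did not vary alike across libraries. The level of a library was the mean, over the 32 members whose log2 CPM averaged 0 or more, of log2 CPM minus the gene's mean over the 7 libraries. It was -0.12, -0.43, -0.05 and -0.02 in the ergothioneine libraries, against 0.07, 0.32 and 0.24 in the untreated libraries, with means of -0.16 ± 0.19 under ergothioneine and 0.21 ± 0.13 in untreated kidneys (SD, n = 4 and 3). Every ergothioneine library was below every untreated one, but ergothioneine library 4 and untreated library 1 were near each other. Without the 4 members that passed, the difference in level was -0.31, against -0.36 with them.

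Ergothioneine library 2 held the lowest value of the 7 in 20 of the 34 tested members, or 58.8%, against 12.1% of all tested genes. Untreated libraries 2 and 3 held the highest value in 15 and 11 members, or 44.1% and 32.4%, against 16.8% and 17.8% of all genes. The GTPases had levels of -0.16, -0.60, -0.20 and 0.18 in the ergothioneine libraries, against 0.37, 0.28 and 0.13 in the untreated libraries. The IFIT, OAS and other RNA-level effectors had -0.20, -0.39, 0.09 and -0.20 in the ergothioneine libraries, against 0.04, 0.36 and 0.30 in the untreated libraries. Ergothioneine library 4 was thus the highest ergothioneine library for the GTPases, and ergothioneine library 3 the highest for the RNA-level effectors. For the RNA-level effectors library 4 was level with library 1, and library 2 was lower. Library 4 was also the highest ergothioneine library for the transcription factors and regulators, at 0.16, and for the nucleic acid sensors, at 0.02. Untreated library 1 was the highest library for the GTPases and the lowest untreated one for the RNA-level effectors.

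**Figure D4:**
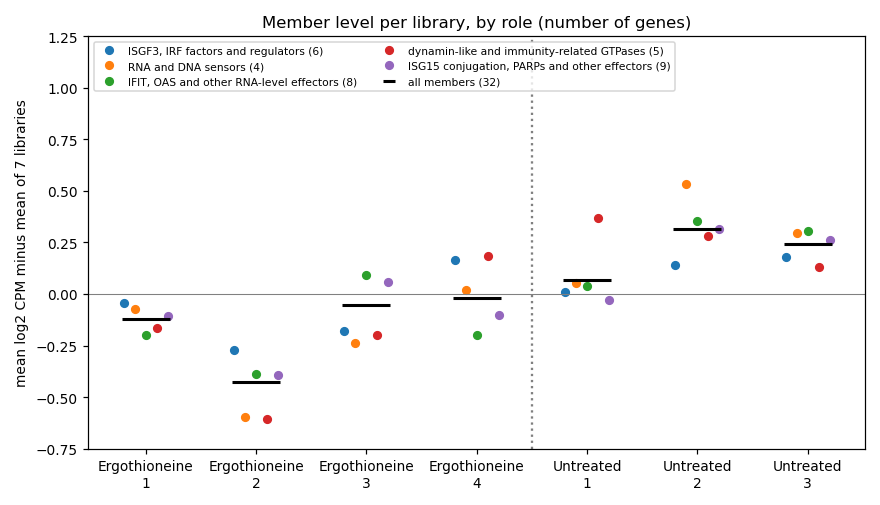
Mean centred log2 CPM of the members, and of each role, in each library (4 ergothioneine and 3 untreated kidneys), where 0 is a gene's mean over the 7 libraries. Over all members the ergothioneine libraries lie between -0.43 and -0.02 and the untreated libraries between 0.07 and 0.32, while for the GTPases ergothioneine library 4 reaches 0.18.

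The libraries also differed in ways that the groups do not fully share. Totals ran from 17296632 to 19791575 counts in ergothioneine libraries and from 14843899 to 17793544 in untreated libraries. Short non-coding genes took 1.83% to 2.79% of the counts in ergothioneine libraries, against 0.427%, 0.570% and 2.46% in untreated libraries 1, 2 and 3. The library names carry index numbers in 2 ranges: ergothioneine library 1 and untreated libraries 1 and 2 lie between 44 and 50, and the other 4 libraries between 14 and 23. Within the range 44 to 50 the difference in log2(CPM + 0.1) was below 0 in 26 of 34 members, with a median of -0.25, and within the range 14 to 23 in 31 of 34, with a median of -0.31. Over all tested genes 49.5% and 50.8% were below 0 in these ranges. A total of 24 members were below 0 in both ranges, where 31.6% of all genes were. The first range holds 1 ergothioneine library and the second 1 untreated library. With the range as a block in the fit Oas2 and Parp14 passed, while Ifit1 and Herc6 did not (edgeR, adjusted p of 0.0954 and 0.0689).

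A further 69 interferon-stimulated genes outside the list gave a smaller median. Of the 65 tested, 5 fell, or 7.69% against 3.57% of all genes, and 0 rose. In 52, or 80% against 50.7% of all genes, the fitted log2 fold change was below 0, and the median was -0.16. The 5 were Ly6e, Cxcl10, Rnf213, Lgals3bp and Ifi207. Ly6e, a surface protein that limits entry of several viruses, had 188, 155, 206 and 186 CPM in ergothioneine kidneys, against 254, 315 and 294 CPM in untreated kidneys (log2 fold change -0.65 ± 0.10 SE, edgeR adjusted p = 0.00215), and it passed with each library left out in turn. Cxcl10, the chemokine that draws CXCR3-bearing T cells, had 2.90, 1.21, 2.22 and 3.22 CPM in ergothioneine kidneys, against 5.04, 4.36 and 5.45 CPM in untreated kidneys. Its groups did not overlap (log2 fold change -1.06 ± 0.25 SE, edgeR adjusted p = 0.0172), and the adjusted p was 0.0633 without untreated library 1 and 0.0686 without untreated library 3. Rnf213 gave -0.31 ± 0.07 SE, Lgals3bp -0.45 ± 0.11 SE and Ifi207 -0.69 ± 0.20 SE, and Ifi207 lost its call with any library left out (edgeR, adjusted p of 0.0557 to 0.171). Rnf213 and Lgals3bp lost theirs without untreated library 3 or ergothioneine library 1, among others, with adjusted p of up to 0.0867 for Rnf213 and 0.107 for Lgals3bp.

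Of 16 interferon-inducible GTPases that are not members, 14 were tested. All 14 had a log2 fold change below 0, against 50.7% of all genes, with a median of -0.52. Gbp7 and Gbp10 fell, 2 of the 14, or 14.3% against 3.57% of all genes. Gbp7 had 15.4, 14.4, 15.5 and 19.2 CPM in ergothioneine kidneys, against 23.3, 21.7 and 18.0 CPM in untreated kidneys (log2 fold change -0.38 ± 0.11 SE, edgeR adjusted p = 0.0489). Gbp10 gave -1.15 ± 0.31 SE (edgeR, adjusted p = 0.0449). As for Igtp and Gbp2, ergothioneine library 4 stood apart. Without it 8 of these 14 GTPases fell, where 477 of all tested genes fell and 461 rose. The library was singled out because it was high for such genes, so calls gained without it are not separate evidence. Without untreated library 2, ergothioneine library 1 or ergothioneine library 2, 0 passed, where 500, 337 and 360 of all genes fell. Guanylate-binding proteins share long stretches of sequence, so reads may be split between them.

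The ligands themselves were not detectable at a useful level. Of 21 interferon genes, 2 had any count, Ifng and Ifnz, with at most 3 counts in a library. Their summed counts were 0, 0, 0 and 5 in ergothioneine libraries, against 3, 1 and 1 in untreated libraries, and Ifnb1 had 0 counts in all 7. None had enough counts for the main test. With no low-count filter edgeR fitted only the 2 with any count and called 0, which decides nothing at so few counts.

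Of 21 receptor and JAK-STAT genes, 1 fell, or 4.76% against 3.57% of all genes, 0 rose and the median log2 fold change was -0.06. The gene that fell was Ifnar2, the signalling chain of the type I receptor, at 18.0, 17.6, 18.6 and 17.2 CPM in ergothioneine kidneys, against 21.5, 21.8 and 21.7 CPM in untreated kidneys. The groups did not overlap (log2 fold change -0.28 ± 0.08 SE, edgeR adjusted p = 0.0455), but DESeq2 gave an adjusted p of 0.0845, and 6 of the 7 fits that left out a library gave 0.0952 to 0.116. Ifnar1 gave -0.10 ± 0.06 SE and Tyk2 had a log2 fold change of -0.18. Those of Ifngr1, Ifngr2 and Jak1 were 0.02, 0.05 and 0.04, and turned sign under TPM scaling.

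Upstream of interferon, 1 of 28 tested genes of nucleic acid sensing fell and 1 rose, which is the share of all genes called in each direction, 3.57% lower and 3.58% higher. Trim56, a ubiquitin ligase, fell by 0.21 on the log2 scale (edgeR, adjusted p = 0.0375). Nlrx1, a mitochondrial NOD-like receptor reported to restrain MAVS signalling, rose by 0.35 (edgeR, adjusted p = 0.0439), with DESeq2 at 0.0600, and had a value of -0.015 under TPM scaling. With a library left out, all but 1 of the fits lost the call of each gene, with adjusted p of up to 0.122 for Trim56 and 0.166 for Nlrx1. The log2 fold changes of Irf3, Mavs and Tmem173 (STING) were -0.09, -0.03 and -0.17, and that of Mb21d1 (cGAS) was 0.52 ± 0.38 SE, and none of them passed.

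In class I antigen presentation, which interferons raise, 4 of 18 genes fell, or 22.2% against 3.57% of all genes, and 0 rose. In 17 of the 18, or 94.4% against 50.7% of all genes, the log2 fold change was below 0, and the median was -0.18. B2m, the invariant light chain, had 142, 111, 145 and 155 CPM in ergothioneine kidneys, against 182, 185 and 171 CPM in untreated kidneys (log2 fold change -0.38 ± 0.09 SE, edgeR adjusted p = 0.0332). H2-T23, H2-D1 and H2-Q4 fell by 0.26, 0.24 and 0.40 on the log2 scale, with edgeR adjusted p of 0.0186, 0.0417 and 0.0440. Class I genes are close copies, and their split of reads is uncertain. None of these 4 genes kept its call with every library left out in turn: the highest adjusted p was 0.155 for B2m, 0.0777 for H2-T23, 0.146 for H2-D1 and 0.149 for H2-Q4.

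Markers of the labelled tissue were high: proximal tubule markers summed to 16175 to 17800 CPM in ergothioneine kidneys, against 16273 to 19652 CPM in untreated kidneys. Slc13a3 fell by 0.31 on the log2 scale (edgeR, adjusted p = 0.0189). It was 1 of 7 proximal tubule markers to pass, or 14.3% against 3.57% of all genes that fell. Of 6 distal nephron markers 3 rose, where 3.58% of all genes rose. These were Slc4a1, Slc12a1 and Atp6v1g3, with log2 fold changes of 0.59, 0.34 and 0.63 (edgeR, adjusted p of 0.00154, 0.0130 and 0.0186). Without ergothioneine library 1 the adjusted p was 0.0755 for Slc13a3, 0.0665 for Slc12a1 and 0.0738 for Atp6v1g3, Slc4a1 passed with each library left out, and Slc12a1 turned below 0 under TPM scaling. Some immune and fat markers moved with the groups. In bulk tissue, fewer cells of a type and less RNA per cell cannot be told apart. Ptprc (CD45), the defining leukocyte marker, had 17.8, 15.5, 19.2 and 21.1 CPM in ergothioneine kidneys, against 23.4, 26.8 and 29.4 CPM in untreated kidneys (log2 fold change -0.53 ± 0.11 SE, edgeR adjusted p = 0.00551). It was the only one of 5 leukocyte markers to pass, or 20% against 3.57% of all genes that fell. All 5 had a log2 fold change below 0, with a median of -0.24. Their sum was 34.1 to 44.004 CPM in ergothioneine kidneys, against 44.9 to 55.6 CPM in untreated kidneys. Without Ptprc the sum of the other 4 overlapped, at 18.2 to 22.9 CPM in ergothioneine kidneys, against 21.5 to 26.2 CPM in untreated kidneys.

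Of 8 B and plasma cell markers 5 were tested and 1 fell, or 20% against 3.57% of all genes. It was Jchain, the joining chain of secreted antibody (log2 fold change -1.52 ± 0.27 SE, edgeR adjusted p = 0.00626). The sum of the 8 was 13.2 to 27.7 CPM in ergothioneine kidneys, against 47.5 to 120 CPM in untreated kidneys, most of it from Ighm and Igkc, while the B cell marker Ms4a1 was under 1 CPM in every library. The 10 macrophage and monocyte markers gave 0 calls and summed to 102 to 115 CPM in ergothioneine kidneys, against 103 to 112 CPM in untreated kidneys. Of these 10, 8 had a log2 fold change below 0, with a median of -0.18, and most of the sum came from Csf1r, whose log2 fold change was 0.12. Without Csf1r the sum was 40.3 to 49.8 CPM in ergothioneine kidneys, against 45.9 to 53.7 CPM in untreated kidneys. T and NK cell markers summed to 3.27 to 4.31 CPM in ergothioneine kidneys, against 3.06 to 4.42 CPM in untreated kidneys. Plasmacytoid dendritic cell markers summed to 0.738 to 1.47 CPM in ergothioneine kidneys, against 0.938 to 1.93 CPM in untreated kidneys, with Cd300c at 0 in all 7 libraries. Of 6 adipocyte markers 5 were tested and all 5 fell, where 3.57% of all genes did. Plin1, Cidea and Adipoq were among them, with log2 fold changes of -3.23, -4.63 and -2.87. The 6 markers summed to 0.681 to 4.62 CPM in ergothioneine kidneys, against 29.6 to 43.99 CPM in untreated kidneys. The part of leukocyte, plasma cell and fat RNA in the members' values was not tested.

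**Figure D5:**
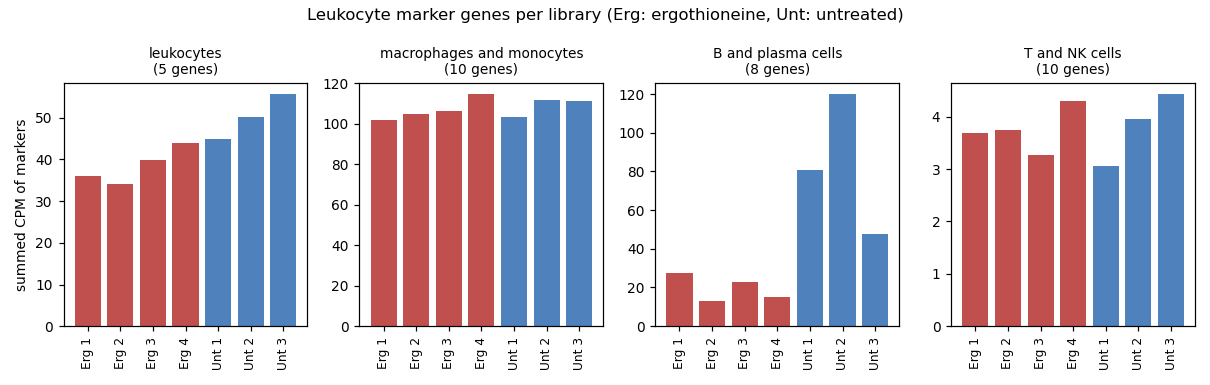
Summed CPM of the marker lists of leukocytes, macrophages and monocytes, B and plasma cells, and T and NK cells in each of the 4 ergothioneine and 3 untreated kidneys, with bars starting at 0. The leukocyte and the B and plasma cell sums are lower in every ergothioneine kidney than in any untreated one, and the other pair overlap, as do the leukocyte sums without Ptprc.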

How the data were processed

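RNA from frozen kidneys of 7 mice was depleted of ribosomal RNA and made into stranded libraries, per the labels' protocols. The submitters' processing notes name STAR 2.7.10a, RSEM 1.3.1, Salmon 1.10.1 and other tools with the builds GRCm38 and mm10. Which tool did what, and with which annotation and strand setting, is not stated there. The authors deposited expected counts, 3.61% of them not whole, and TPM values for 45706 genes. GENCODE M21 held 45143 of the identifiers and gave symbols and coordinates. Mb21d1 was found there as Cgas.

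Expected counts were rounded and tested with edgeR 4.0.16 (filterByExpr, TMM, robust quasi-likelihood test), ergothioneine over untreated, adjusted over all 15399 genes. A standard error is the fold change over the square root of F. Alternatives used DESeq2 1.42.0 and limma 3.58.1 in R 4.3.3. Library totals ran from 14843899 to 19791575 counts. Pairs of libraries of a group differed by 8.01 to 27.7 times sampling noise (chi-square per degree of freedom), so none was a copy.

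The members, the other gene lists, the tests and the alternatives were chosen with earlier results of these data known. All members are accounted for. Values per library are given for members that passed and for Isg15, Irf7, Stat2, Irf9, Irf1, Ifit1, Ifi27l2a and Usp18. Other members printed by library were chosen after their values were seen. From pathway lists, up to 6 genes that passed and set receptors, kinases, adaptors and ligands are named, and from cell type lists up to 3 that passed. Some genes named by this rule are not reported here. The scripts were tested on simulated data.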

Additional observations from a re-analysis of the deposited data

Results flagged for a closer look

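In 48 sets of 4 ergothioneine values (the 36 members and 12 library levels), the gap of the highest or lowest library to its neighbour was set against the whole range. It was above the 95% critical value of Dixon's test in 1 set, where chance gives about 1 in 20. Irf1 CPM had a gap of 0.837 of its range, from ergothioneine library 4 at 16.6 CPM, against 8.91 to 10.2 CPM in the other ergothioneine libraries and 9.41 to 12.4 CPM in untreated libraries.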

How the results depend on the processing

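Over 712 alternative values of single members, 619 kept their direction and side of the threshold, 36 newly passed, 33 no longer passed and 24 changed sign. DESeq2, limma-voom, RLE scaling, library totals only, both other count filters and a fit without short non-coding genes each called the same 4 members lower. Leaving out each library in turn gave 0 to 6 members lower, 337 to 589 genes lower and 350 to 514 higher, against 4, 550 and 552. Ifit3 and Ifi44 joined without ergothioneine library 3 (edgeR, adjusted p 0.0404 and 0.0480).

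Deposited TPM values hold 37.5% to 48.5% short non-coding RNA in ergothioneine libraries and 12.1%, 16.1% and 48.7% in untreated libraries, which shifted the median of all tested genes to -0.31 with log2(TPM + 1) and -0.37 with log2(TPM + 0.1). Members lower were 18 with either pseudocount and 0 with log2(TPM + 1) and no filter, genes lower were 1484, 1424 and 62, and genes higher 54, 53 and 2. The 18 do not include Parp14 (limma, adjusted p 0.0587 and 0.0598). The members' median was -0.76 with log2(TPM + 0.1). Chosen after seeing the data, log2(TPM + 1) rescaled without short non-coding genes gave 0 members lower, a members' median of -0.31, 145 genes lower and 135 higher. Untreated library 3 alone against the ergothioneine libraries, with the lone library assumed to vary like the others, gave 1 member lower, 307 genes lower and 249 higher. The library index range as a block left 2 members lower.

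The replicate numbers do not pair the samples: correlations of same-numbered deviations were 0.03, -0.07 and 0.0027, and 0 of 6 libraries correlated best with its own number. With the replicate block 4 members were lower, and all genes gave 413 lower and 396 higher. Igtp and Gbp2 then passed (adjusted p 0.00435 and 0.00949) and Ifit1 and Herc6 did not (0.0577 and 0.0786). Replicate number 4 occurs only among ergothioneine libraries, so in this fit ergothioneine library 4 does not enter the difference between groups.

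Sign changes followed TPM scaling for Irf1 (-0.26, -0.30 and -0.26 with log2(TPM + 1), log2(TPM + 0.1) and no filter), Trim25 (-0.33, -0.34 and -0.33), Rsad2 (-0.24, -0.26 and -0.24), Cmpk2 (-0.27, -0.31 and -0.27), Ifngr1 (-0.32, -0.33 and -0.32), Ifngr2 (-0.29, -0.32 and -0.29), Jak1 (-0.29, -0.30 and -0.29), Mb21d1 (-0.065, -0.23 and -0.065), Nlrx1 (-0.015 in each) and Slc12a1 (-0.034 in each). With single libraries left out, values ran from -0.18 to 0.15 for Irf1, -0.028 to 0.15 for Trim25, -0.19 to 0.025 for Oas1a, -0.062 to 0.11 for Cmpk2, -0.023 to 0.056 for Ifngr1 and -0.075 to 0.025 for Mavs. Irf1 was -0.18 with the replicate block, and with the index range block Irf1 was -0.076, Cmpk2 -0.0040 and Ifngr1 -0.0056. Against untreated library 3 alone, Trim25 was -0.12, Oas1a 0.039, Cmpk2 -0.085, Rtp4 0.0031 and Jak1 -0.0050. Apart from the TPM shift, the cause was not tested. Isg15, Oas1g and Mb21d1 gave no value under the stricter count filter.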
